A study of Mus musculus with 5 samples.

Results

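The genes described here are 9 cathepsins (*Ctsa*, *Ctsb*, *Ctsc*, *Ctsd*, *Ctsh*, *Ctsk*, *Ctsl*, *Ctss* and *Ctsz*) and *Cst3*, which encodes the cathepsin inhibitor cystatin C. They were chosen by gene symbol and make up 10 of the 28693 features with a count row. The study profiled lung cell suspensions by droplet single-cell RNA sequencing (scRNA-seq) to follow macrophages through bleomycin injury and repair. Every mouse was *Ms4a3-CreER;R26-tdT*, on a mixed C57BL6/129 background, and tamoxifen had been given to induce the label. The sham group received PBS, and 4 further groups received bleomycin through the trachea and were sampled on day 3, day 7, day 14 and day 28. The study used male and female adult mice from 7 weeks of age. Each group had 1 library, and the number of mice in a library is not given in the sources used here. The Cre is driven from *Ms4a3*, a gene of granulocyte and monocyte progenitors, so the tdT reporter can mark neutrophils as well as monocytes and their progeny.

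Cathepsins are proteases that work mainly inside lysosomes. Most of them are cysteine proteases (*Ctsb*, *Ctsc*, *Ctsh*, *Ctsk*, *Ctsl*, *Ctss* and *Ctsz*), whereas cathepsin D is an aspartic protease and cathepsin A a serine carboxypeptidase that also protects β-galactosidase and neuraminidase. Macrophages use them to digest ingested proteins, antigen-presenting cells use cathepsin S to trim the invariant chain of MHC class II, and secreted cathepsins K and L can cleave collagen and elastin. Cystatin C is secreted and blocks cysteine cathepsins, but not cathepsins A and D. The transcription factor TFEB binds E-boxes in many lysosomal genes, and interferon-regulated promoters often hold repeats of GAAA.

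The genes lie on 6 chromosomes of GRCm38. *Ctsk* (chr3:95499256-95509362) and *Ctss* (chr3:95526786-95556403) are neighbours on the plus strand, 17423 bases apart. *Cst3* (chr2:148871722-148875692), *Ctsa* (chr2:164832873-164841032) and *Ctsz* (chr2:174427493-174439039) are spread along chromosome 2, and *Ctsc* (chr7:88278085-88310888) and *Ctsd* (chr7:142375911-142388038) lie far apart on chromosome 7. The other loci are *Ctsh* (chr9:90054152-90076089), *Ctsl* (chr13:64359337-64370890) and *Ctsb* (chr14:63122462-63145923). A RefSeq promoter window of GRCm38.p6 was found for 8 of the 10 genes, with no window for *Ctsb* and *Ctsh*. The windows of 4 genes to which the macrophage comparisons return, *Ctsd* as the most abundant cathepsin of AMs and *Ctsl*, *Ctss* and *Ctsk* as those with the highest ratios between libraries of C1q macrophages, are printed below as the 250 bases before the RefSeq start, 5′ to 3′ on the strand of the gene. They lie at chr7:142387828-142388077 (*Ctsd*, minus strand), chr13:64370521-64370770 (*Ctsl*, minus strand), chr3:95526536-95526785 (*Ctss*, plus strand) and chr3:95498960-95499209 (*Ctsk*, plus strand). Capitals mark the E-box CACGTG and the interferon-type element GAAANNGAAA, both searched on both strands.
Ctsd: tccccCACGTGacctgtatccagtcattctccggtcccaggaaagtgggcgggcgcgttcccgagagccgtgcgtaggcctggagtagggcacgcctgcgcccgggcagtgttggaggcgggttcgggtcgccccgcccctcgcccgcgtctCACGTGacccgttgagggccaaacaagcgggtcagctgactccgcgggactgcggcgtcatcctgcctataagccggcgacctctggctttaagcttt
Ctsl: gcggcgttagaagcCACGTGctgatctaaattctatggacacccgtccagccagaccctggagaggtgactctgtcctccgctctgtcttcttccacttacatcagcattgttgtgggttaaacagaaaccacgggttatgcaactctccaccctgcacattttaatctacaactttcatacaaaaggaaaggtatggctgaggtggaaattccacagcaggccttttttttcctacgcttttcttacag
Ctss: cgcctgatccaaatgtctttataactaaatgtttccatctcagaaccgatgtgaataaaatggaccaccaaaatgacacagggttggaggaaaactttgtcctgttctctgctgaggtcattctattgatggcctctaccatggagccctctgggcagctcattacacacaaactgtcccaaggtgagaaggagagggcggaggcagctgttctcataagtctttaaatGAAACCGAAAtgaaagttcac
Ctsk: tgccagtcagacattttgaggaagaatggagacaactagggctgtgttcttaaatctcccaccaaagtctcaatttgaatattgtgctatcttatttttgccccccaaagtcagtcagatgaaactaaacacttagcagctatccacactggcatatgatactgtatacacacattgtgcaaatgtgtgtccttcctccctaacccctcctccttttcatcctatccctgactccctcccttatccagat
The E-box occurred 2 times in the *Ctsd* window, 1 time in that of *Ctsl* and 1 time in the second of the 2 windows of *Ctsa*. It was present in 6.02% of all 32851 mouse windows of this length. A RefSeq start need not be the first base of the gene. The *Ctsl* window and the second *Ctsa* window lay wholly inside the gene coordinates given above, so their E-boxes were intragenic. Most of the *Ctsd* window also lay inside the gene, with its E-box at position 6 before the gene and that at position 153 inside it. The GAAANNGAAA element was found in the *Ctss* window alone among the members and in 2.98% of all windows, and the *Ctsk* window held neither run of letters. A match describes the sequence only and does not show that a factor binds there.

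The 5 libraries held between 89769386 and 167506186 UMIs, and 40950 of 52800 barcodes remained after filters and removal of predicted doublets. Cells were assigned to 17 classes from their own marker UMIs, with no cathepsin, cystatin or legumain among the markers, and pairs of libraries shared between 22 and 41 barcodes. No class was given to 7381 cells. The suspension is labelled as immune cells, but 573 epithelial, 352 endothelial and 308 fibroblast cells were present. The day 7 library had a lowest UMI count of 4624, against 500 to 502 in the others. The 965 C1q macrophages of day 3 stood apart: 92.9% of them fell in a cluster of which 93.9% of cells came from day 3, and in which the C1q markers led those of the next class by only 0.108. At day 28, 68.5% of C1q macrophages lay in another cluster, and only 50 cells of this class were found in sham lungs, so that sham is a weak reference for it.

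Levels are given as counts per 1000000 (CPM) of the UMIs summed over all cells of a class in a library. Counting at the 3′ end does not scale with transcript length, so no length correction was made. T cells carried *Ctsd* at 242 to 786 CPM, *Ctss* at 237 to 561 CPM and *Ctsk* at 9.03 to 63.5 CPM, and levels in these ranges were read as no more than the background that free RNA can give. Other lymphocytes went above these ranges. At day 7 *Ctsd* was 2284 CPM in B cells and 5513 CPM in NK cells, and *Ctsk* was 203 and 108 CPM. The T cell ranges are therefore a low estimate, and the part of free RNA in levels above them was not tested. The members were described first by their level in each class, ordered by the median over libraries, and neighbouring classes were called apart only where every library holding both gave the same sign.

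**Figure D1:**
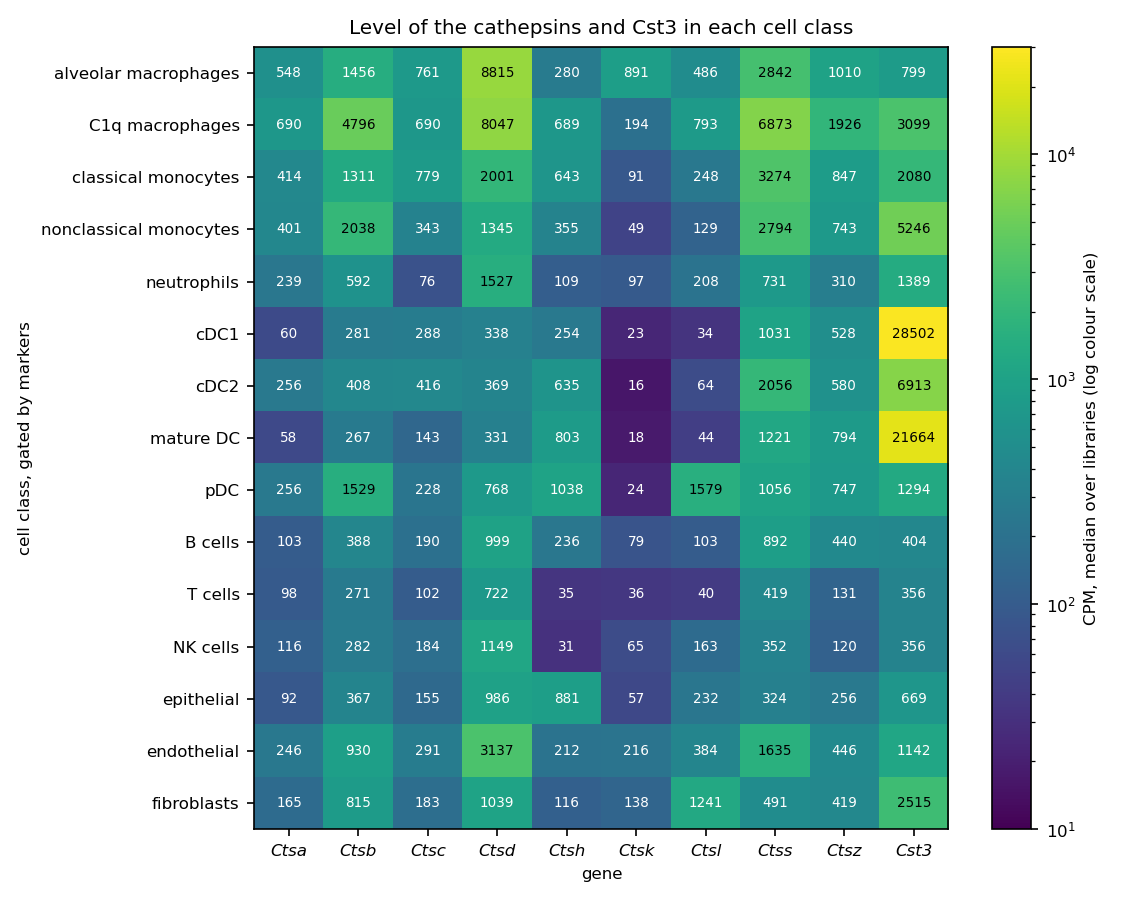
Median CPM over the libraries for each gene (columns) and each marker-gated cell class with 20 or more cells (rows), with a log colour scale and the value printed in each square. AMs and C1q macrophages hold the highest *Ctsd* (8815 and 8047), and cDC1 and mature DC the highest *Cst3* (28502 and 21664).

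*Ctsd*, the aspartic protease, was a gene of both macrophage classes. Its median was 8815 CPM in alveolar macrophages (AMs) and 8047 CPM in C1q macrophages, which carry interstitial macrophage markers, and AMs were the higher in 5 of 5 libraries, although in the test described below this difference did not pass. Endothelial cells were next at 3137 CPM (957 to 3638), and classical monocytes had 2001 CPM. The endothelial class had 28 to 108 cells per library, with a median depth of 11900 UMIs at day 7 and 1128 to 3026 UMIs elsewhere. AMs had 14020 to 23710 UMIs, and the part of free RNA in the endothelial level was not tested. In AMs *Ctsd* ranked between the 8th and 15th most abundant gene of the class in every library.

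The cysteine cathepsins split by class. *Ctsb*, a lysosomal endo- and exopeptidase, was highest in C1q macrophages, with a median of 4796 CPM (3089 to 5309) and above the next class, nonclassical monocytes (2038 CPM), in 5 of 5 libraries. *Ctss* was also highest there at 6873 CPM (2391 to 9873), but the order against classical monocytes (3274 CPM) held in 3 of 4 libraries only. *Ctsz*, a carboxypeptidase, stood at 1926 CPM in C1q macrophages and 1010 CPM in AMs, in the same order in 5 of 5 libraries. *Ctsk* was the opposite case. This collagen-degrading enzyme, best known from osteoclasts, had its highest median among the gated classes in AMs at 891 CPM, where its 5 libraries lay between 869 and 919.9 CPM. Cells that met no gate were above AMs in sham (1230 CPM) and at day 28 (1196 CPM). At days 3, 7 and 14 they were below AMs, at 484, 370 and 657 CPM. Each AM library exceeded the endothelial cells, whose median was 216 CPM, while the order among endothelial cells, C1q macrophages (194 CPM) and fibroblasts (138 CPM) was not the same in every library. The low depth of endothelial cells given above applies to this level too.

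By their medians, *Ctsl* and *Ctsh* were led by classes other than macrophages. *Ctsl*, a collagen- and elastin-degrading endopeptidase, had its highest median in plasmacytoid dendritic cells (pDC) at 1579 CPM (1053 to 1921), above fibroblasts (1241 CPM) in 4 of 4 libraries. C1q macrophages had a median of 793 CPM, but their range, 511 to 5547 CPM, was in CPM the widest of any class for this gene. At day 14 they held 2882 CPM of *Ctsl*, above pDC (1339 CPM) and fibroblasts (1287 CPM). Their highest value was that of day 28, for which pDC had no value. *Ctsh*, an aminopeptidase that also matures surfactant protein in alveolar epithelium, was highest in pDC (1038 CPM), epithelial cells (881 CPM) and mature dendritic cells (803 CPM), and these neighbours were not apart. AMs held only 280 CPM of *Ctsh*. *Ctsc*, which activates granule serine proteases of neutrophils and cytotoxic lymphocytes, had its highest medians in classical monocytes (779 CPM), AMs (761 CPM) and C1q macrophages (690.0 CPM), which were not apart from each other. Neutrophils had the lowest median of *Ctsc* at 75.8 CPM, with 1 higher library at day 7 (464 CPM).

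*Ctsa*, the serine carboxypeptidase, again had its highest level in macrophages. C1q macrophages (690.3 CPM) were above AMs (548 CPM) in 5 of 5 libraries, and AMs above classical monocytes (414 CPM) in 4 of 4. The lowest classes were cDC1 at 59.8 CPM and mature DC at 57.9 CPM. The 9 cathepsins together took 1.27% to 1.96% of all UMIs in AMs, 1.25% to 3.47% in C1q macrophages and 0.102% to 0.224% in T cells.

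*Cst3* was distributed unlike the enzymes. Its level in type 1 conventional dendritic cells (cDC1) was 28502, 35621, 29151, 23711 and 25780 CPM in sham and at days 3, 7, 14 and 28, and it was the most or second most abundant gene of the class in each library. Mature dendritic cells held 18164 to 23520 CPM, and type 2 cells (cDC2) 4679 to 9597 CPM, in that order in 5 of 5 libraries. AMs held 665 to 1009 CPM. T cells held 163 to 743 CPM, and at day 7 AMs (741 CPM) were no higher than T cells (743 CPM). Set against the summed cysteine cathepsins of the same cells, *Cst3* amounted to 5.30 to 17.0 UMIs per cathepsin UMI in cDC1, 4.84 to 8.52 in mature DC and 1.00 to 3.13 in cDC2. The ratio was 0.122 to 0.336 in C1q macrophages and 0.0971 to 0.105 in AMs, so that the ranges of cDC1, cDC2 and mature DC did not overlap those of the macrophages. Plasmacytoid dendritic cells, at 0.165 to 0.243, lay within the range of C1q macrophages. Outside dendritic cells the ratio was 0.264 to 1.29 in neutrophils, 0.713 to 1.06 in fibroblasts and 0.375 to 1.03 in nonclassical monocytes. Their highest values reached the range of cDC2, so a high ratio was not particular to dendritic cells.

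**Figure D2:**
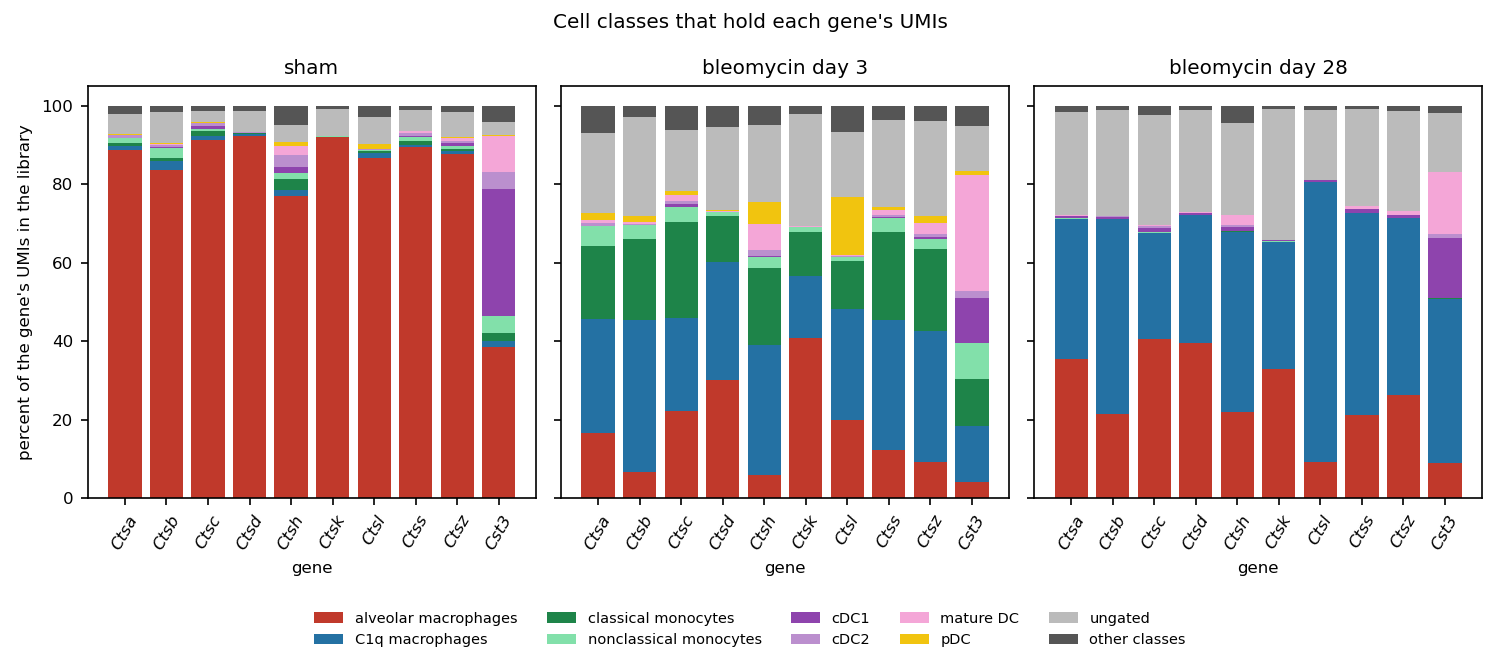
Percent of each gene's UMIs held by each cell class in the sham, day 3 and day 28 libraries, as stacked bars that sum to 100. AMs, which hold most UMIs of all genes in sham, fill most of each cathepsin bar there, C1q macrophages hold 71.4% of *Ctsl* at day 28, and dendritic cells hold much of *Cst3*.

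The cells that carried the cathepsin UMIs of the lung suspension changed with time. Both the number of cells in a class and the level in its cells changed, and their parts in these shares were not separated. In sham, AMs were 59.2% of cells and held between 76.9% (*Ctsh*) and 92.4% (*Ctsd*) of the UMIs of each cathepsin, but 38.6% of *Cst3*, of which cDC1, at 1.02% of cells, held 32.2%. Over all genes, AMs held 87571479 of the 108354650 UMIs of sham, so a large share alone does not mark a gene of AMs. At day 3 AMs were 7.54% of cells, and the largest share of any member in 1 class was 40.8% (*Ctsk* in AMs). Classical monocytes, 12.0% of cells, held 24.5% of *Ctsc* and 22.4% of *Ctss*, pDC held 14.8% of *Ctsl* with 2.32% of cells, and mature DC held 29.4% of *Cst3*. Of the 78059187 UMIs of all genes at day 3, AMs held 8744272, classical monocytes 12047474, pDC 1985715 and mature DC 2658993. At day 28 C1q macrophages, 18.3% of cells, held 71.4% of *Ctsl*, 51.3% of *Ctss* and 49.5% of *Ctsb*. Cells that met no marker gate held between 14.9% and 33.3% of each member at day 28, most of all of *Ctsk*. Of the 133414709 UMIs of all genes at day 28, these cells held 33012034 and C1q macrophages 37998454. These shares describe the cells recovered from 1 suspension per time point.

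AMs were compared with C1q macrophages within each library. Where the cells lay in the lung was not measured, and C1q macrophages fell in different clusters by time, as given above. UMI sums per class and library were tested with the edgeR quasi-likelihood test with library as a block, with Benjamini–Hochberg adjustment over all genes tested. The libraries of different time points stood for each other as replicates of the class difference only, and no p-value was computed between time points. *Ctsb* was 948, 1456, 1285, 1643 and 1946 CPM in AMs of sham, day 3, day 7, day 14 and day 28, and 3089, 5197, 4026, 4796 and 5309 CPM in C1q macrophages of the same libraries. The 2 sets of values did not overlap, and the log2 difference was -1.74 ± 0.13 (SE, n = 5 libraries, edgeR adjusted p = 0.000133). *Ctsh* (-1.54 ± 0.11, edgeR adjusted p = 9.89e-05), *Cst3* (-2.04 ± 0.25, edgeR adjusted p = 0.000876) and *Ctsz* (-0.92 ± 0.18, edgeR adjusted p = 0.00623) were also lower in AMs in 5 of 5 libraries. These 4 calls held whichever library was left out.

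The other calls depended on single libraries. *Ctsk* was 891, 919.9, 879, 906 and 869 CPM in AMs and 76.5, 217, 113, 194 and 1013 CPM in C1q macrophages, in order of time. AMs were therefore higher in 4 of 5 libraries and lower at day 28, with a log2 difference of 2.05 ± 0.55 (edgeR adjusted p = 0.0211). *Ctsl* (-1.65 ± 0.55, edgeR adjusted p = 0.0468), *Ctss* (-1.06 ± 0.31, edgeR adjusted p = 0.0296) and *Ctsa* (-0.37 ± 0.11, edgeR adjusted p = 0.0366) were lower in AMs. *Ctsa* was lower in 5 of 5 libraries, but *Ctsl* and *Ctss* in 4 of 5, since *Ctsl* was higher in AMs at day 3 (585 against 511 CPM) and *Ctss* in sham (2610 against 2391 CPM). Leaving out day 7 or day 14 ended the calls of all 4 genes, leaving out sham those of *Ctsk* and *Ctsl*, leaving out day 3 that of *Ctsk*, and leaving out day 28 those of *Ctsl*, *Ctss* and *Ctsa*, with adjusted p up to 0.127. *Ctsc* (0.02 ± 0.17) and *Ctsd* (0.31 ± 0.24) did not pass. In all, 1 member was higher and 7 were lower in AMs, where 21.4% of the 13398 genes tested were higher and 19.2% were lower. The median log2 difference of the members was -0.99, against 0.015 for all genes with TMM scaling and 0.112 on CPM. Among the other genes of the pathway, legumain (*Lgmn*), which activates cysteine cathepsins, was lower in AMs (-1.97 ± 0.15), as was the mannose 6-phosphate receptor *Igf2r* (-4.43 ± 0.35), whereas the sorting receptors *Sort1* (2.82 ± 0.47) and *M6pr* (0.57 ± 0.10) and the inhibitor *Serpinb1a* (2.58 ± 0.41) were higher. Of the lists, the test called 2 of 5 other cathepsins lower (*Ctse* and *Ctsg*). From the inhibitor list 1 of 8 genes was higher and 4 were lower (*Cst7*, *Stfa2l1*, *Cstb* and *Bsg*). This list, counted here and below, includes *Bsg* (basigin), a membrane glycoprotein that is not a cathepsin inhibitor. The test also called 2 of 10 activation and sorting genes higher and 4 lower, and 1 of 6 partners and membrane genes higher (*Neu1*) and 4 lower, *Cd63* furthest (-1.27 ± 0.21).

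Both macrophage classes contained cells with and without the fibrosis-associated markers *Gpnmb*, *Mmp12*, *Mfge8*, *Trem2* and *Spp1*. Cells with 3 or more of these 5 markers after thinning to a common depth were called scar-high and those with at most 1 scar-low. None of the cathepsins took part in this split. In AMs, *Ctsk* was 1387, 1705, 1084, 1138 and 1068 CPM in scar-high cells of sham, day 3, day 7, day 14 and day 28, and 707, 642, 660.0, 694 and 606 CPM in scar-low cells. Every scar-high library lay above every scar-low library, and the log2 difference was 0.98 ± 0.09 (SE, n = 5 libraries, edgeR adjusted p = 3.72e-05). *Ctsb* (0.68 ± 0.09), *Ctsl* (0.55 ± 0.07), *Ctsd* (0.54 ± 0.07), *Ctsz* (0.43 ± 0.07) and *Cst3* (0.33 ± 0.06) were also higher in scar-high AMs, in 5 of 5 libraries each, with edgeR adjusted p between 0.000437 and 0.00576. The 6 calls held whichever library was left out. *Ctsa* (0.15), *Ctsh* (0.12), *Ctss* (0.20) and *Ctsc* (-0.01) did not pass. For comparison, 3.75% of 11294 genes were higher and 2.05% lower in scar-high AMs, and the median over the members was 0.38 against -0.01 over all genes. Within AMs these differences were already present in sham lungs, where 328 scar-high cells were found. *Mfge8* was also among the top genes of C1q macrophages, and the part of C1q macrophage RNA in the AM differences was not tested.

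In C1q macrophages the same split gave larger differences, although the classes were not tested against each other. *Ctsl* was 793, 1130, 3617 and 5908 CPM in scar-high cells of day 3, day 7, day 14 and day 28, against 373, 318, 827 and 483 CPM in scar-low cells. Scar-high cells were the higher in each library, and the log2 difference was 2.23 ± 0.39 (SE, n = 4 libraries, edgeR adjusted p = 0.00942). *Ctsk* was 449, 153, 224 and 1083 CPM against 89.7, 66.4, 137 and 76.8 CPM (1.99 ± 0.42, edgeR adjusted p = 0.0191). *Ctsd* (1.74 ± 0.23), *Ctsb* (1.30 ± 0.21), *Ctsz* (0.99 ± 0.21), *Ctss* (0.84 ± 0.20) and *Ctsa* (0.69 ± 0.17) were higher in 4 of 4 libraries as well, with edgeR adjusted p between 0.00356 and 0.0355. *Ctsc* (-0.34), *Ctsh* (0.38) and *Cst3* (0.04) did not pass, and *Cst3* was lower in scar-high cells at day 3 and day 7 and higher at day 14 and day 28. In all, 7 members were higher and none lower, where 4.99% of 11312 genes were higher and 5.93% lower, and the median over the members was 0.92. Of the 4 libraries, leaving out day 7 or day 14 reduced the 7 calls to 3, and *Ctsk* and *Ctsd* were called in every fit with 1 library left out. The scar-low group of day 28 held 48 cells, and sham was not used because it had fewer than 20 scar-high C1q macrophages. Markers of AMs were lower in the scar-high cells, at 39.8 to 275 CPM in sum against 86.4 to 836 CPM in the scar-low cells of the same libraries.

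**Figure D3:**
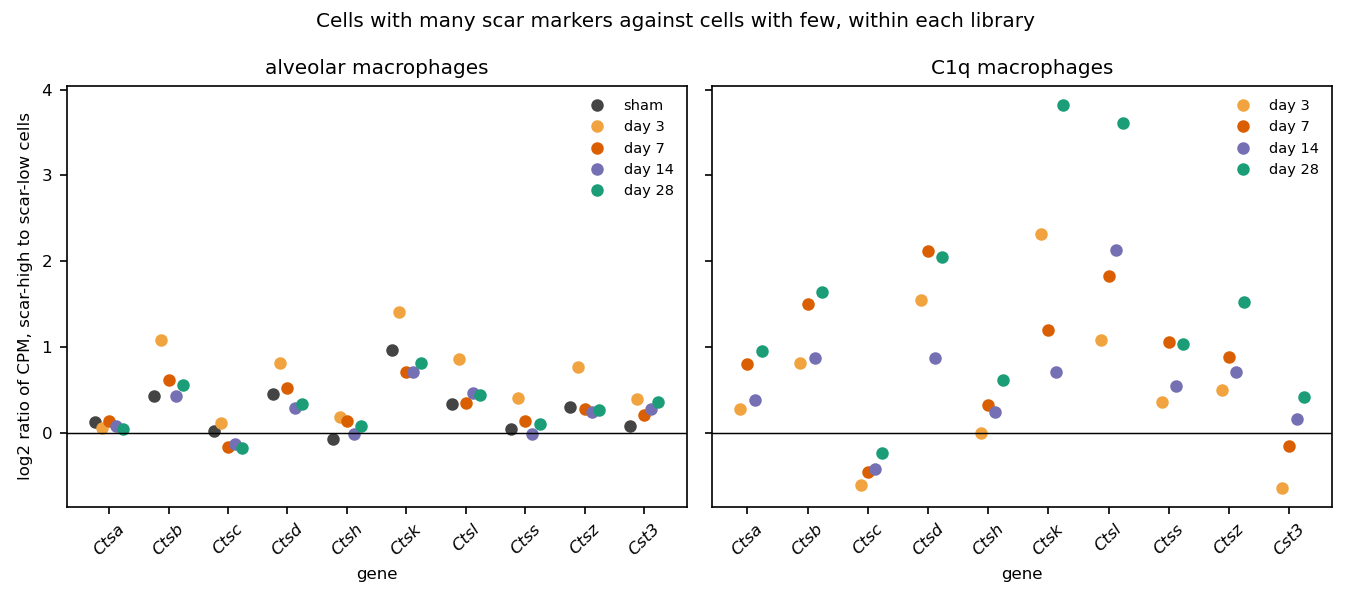
Log2 ratio of CPM in scar-high to scar-low cells for each gene, in AMs (left, 5 libraries) and C1q macrophages (right, 4 libraries), with 1 point per library and a line at no difference. *Ctsk* and *Ctsl* reach 3.82 and 3.61 in C1q macrophages of day 28, whereas all AM points lie between -0.17 and 1.41.

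Genes that deliver and activate cathepsins differed in the same split. *Igf2r* was higher in scar-high AMs (1.80 ± 0.23) and scar-high C1q macrophages (1.58 ± 0.15), and so were the cathepsin D and sphingolipid cofactor precursor *Psap* (0.44 ± 0.07 and 1.16 ± 0.20), *Lgmn* (0.53 ± 0.06 and 0.80 ± 0.18), the cytosolic inhibitor *Cstb* (0.51 ± 0.07 and 1.04 ± 0.21) and the lysosome membrane gene *Cd63* (0.82 ± 0.09 and 1.35 ± 0.16). In AMs this made 3 of 10 activation and sorting genes, 3 of 6 inhibitors (*Cst6*, *Cstb* and *Serpinb6a*) and 3 of 6 partners and membrane genes higher, with none lower. In C1q macrophages 5 of 10, 1 of 7 and 4 of 6 were higher, and *Serpinb1a* was lower (-3.51 ± 0.52). None of the 3 other cathepsins tested in AMs, or of the 4 tested in C1q macrophages, passed.

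C1q macrophages were also compared with classical monocytes, which were numerous enough in 4 libraries (112 cells in sham, 888 at day 3, 224 at day 7 and 36 at day 14). At day 3 the 2 classes shared a cluster, which held 92.9% of the C1q macrophages and 69.3% of the monocytes, and the summed classical monocyte markers of C1q macrophages were 3355 CPM there against 840, 441 and 213 CPM in sham, day 7 and day 14. *Ctsl* was 684, 511, 793 and 2882 CPM in C1q macrophages and 161, 261, 236 and 520 CPM in monocytes. C1q macrophages were the higher in each library, with a log2 difference of 1.82 ± 0.29 (SE, n = 4 libraries, edgeR adjusted p = 0.00423). *Ctsd* (1.59 ± 0.24, edgeR adjusted p = 0.00329), *Ctsb* (1.52 ± 0.29, edgeR adjusted p = 0.0094) and *Ctsz* (0.95 ± 0.25, edgeR adjusted p = 0.0385) were higher in 4 of 4 libraries. Leaving out day 14 ended the calls of *Ctsb* (adjusted p = 0.077) and *Ctsz* (adjusted p = 0.175), and leaving out day 7 that of *Ctsz* (adjusted p = 0.114). Without day 3 all 4 genes were still called, with log2 differences of 2.16 for *Ctsl*, 1.79 for *Ctsd*, 1.86 for *Ctsb* and 1.17 for *Ctsz*. The remaining 6 members had log2 differences between -0.02 (*Ctsc*) and 0.70 (*Ctsa*) and did not pass. Thus 4 of 10 members were higher, where 4.24% of 11669 genes were higher and 4.67% were lower. *Lgmn* (1.83 ± 0.29), *Gnptg* (0.73 ± 0.19), *Serpinb6a* (2.69 ± 0.29), *Cd63* (2.25 ± 0.36), *Glb1* (0.99 ± 0.17) and cathepsin F (*Ctsf*, 3.03 ± 0.35) were higher too, and the neutrophil granule protease *Ctsg* was lower (-5.67 ± 0.88). These were 2 of 10 activation and sorting genes, 1 of 8 inhibitors, 2 of 6 partners and membrane genes and 2 of 5 other cathepsins.

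Nonclassical monocytes, which patrol vessels, had more of the inhibitor and less of 3 cysteine cathepsins. *Cst3* was 5324, 5878, 3701 and 5246 CPM in nonclassical monocytes of sham, day 3, day 7 and day 14 and 2689, 2100.4, 2059 and 2032 CPM in classical monocytes. The ranges did not overlap (1.13 ± 0.20, SE, n = 4 libraries, edgeR adjusted p = 0.0048). *Ctsc* (-1.24 ± 0.18, edgeR adjusted p = 0.00179), *Ctsk* (-1.20 ± 0.22, edgeR adjusted p = 0.00526) and *Ctsh* (-1.09 ± 0.16, edgeR adjusted p = 0.00198) were lower in 4 of 4 libraries. *Ctsk* of nonclassical monocytes, at 49.4, 78.4, 40.4 and 21.9 CPM, was mostly in the range of T cells, and with predicted doublets kept the *Ctsk* difference did not pass (adjusted p = 0.122). Classical monocytes had 81.5, 185, 79.6 and 100 CPM of *Ctsk*, where B cells had 79.5, 25.2, 203 and 41.8 CPM. Of all 8559 genes tested, 6.91% were higher and 5.46% were lower. Among 5 inhibitors *Serpinb6a* was higher and *Cstb* lower, *Mitf* was the 1 gene lower of 10 for activation and sorting and *Lamp1* the 1 lower of 6 partners and membrane genes, and the 1 other cathepsin tested did not pass.

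Dendritic cells are the other large antigen-presenting group of the lung, and their subtypes were separated by *Cst3* and by a few enzymes. cDC1 exceeded cDC2 in *Cst3* in 5 of 5 libraries, with a log2 difference of 2.18 ± 0.17 (SE, n = 5 libraries, edgeR adjusted p = 4.85e-05). *Ctsh* was 243, 295, 206, 259.9 and 254 CPM in cDC1 of sham, day 3, day 7, day 14 and day 28 and 764, 838, 536, 635 and 556 CPM in cDC2. All cDC1 libraries lay below all cDC2 libraries (-1.27 ± 0.10, edgeR adjusted p = 4.49e-05). *Ctsa* was lower in cDC1 in 5 of 5 libraries (-1.69 ± 0.28, edgeR adjusted p = 0.00234). *Ctss*, the invariant chain protease, was lower in 4 of 5 (-0.62 ± 0.18, edgeR adjusted p = 0.0372), and this call was lost when sham, day 3, day 7 or day 14 was left out and when doublets were kept. Hence 1 member was higher and 3 lower, with 9.41% of 9704 genes higher and 9.28% lower.

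*Ctsa*, *Ctsb*, *Ctsd*, *Ctsk*, *Ctsl* and *Ctss* varied between the cDC1 libraries. *Ctsl* was 18.8, 33.5, 33.0, 233 and 501 CPM in cDC1 in order of time, and *Ctsd* was 190.0, 56.9, 338, 1276 and 2273 CPM. *Ctsa* was 29.9, 59.8, 44.1, 116 and 152 CPM in cDC1, against 256 CPM in cDC2 of sham and 268 CPM in cDC2 of day 28. *Ctss* of cDC1 was 536, 1031, 754, 1491 and 2169 CPM. The 2 latest libraries were the highest for all of these genes in cDC1, and T cells of these libraries held 116 and 172 CPM of *Ctsl*. The summed C1q macrophage markers of cDC1 were 4.69, 68.5, 145, 196 and 355 CPM in the same order, and their part in these levels was not tested. With cells named by cluster in place of their own markers, 9 members were called, and *Ctsb* (-1.52), *Ctsd* (-1.90) and *Ctsl* (-1.92) were lower in cDC1, although none of the 3 had passed with marker-gated cells. The cDC2 class by cluster was mixed. In its largest cluster, of 1833 cells, only 39.8% were cDC2 by their own markers. That cluster also held 10.7% of the C1q macrophages and 37.1% of the classical monocytes of day 7.

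Mature dendritic cells, marked by *Ccr7* and *Fscn1*, were compared with cDC2, and which class they arose from was not tested. They were not tested against cDC1, which had more *Cst3* (23711 to 35621 CPM against 18164 to 23520 CPM) and 29.9 to 152 CPM of *Ctsa*. *Ctsa* was 72.1, 65.1, 57.9, 45.6 and 41.8 CPM in mature cells and 256, 236, 196, 272 and 268 CPM in cDC2. These ranges were far apart (-1.85 ± 0.16, SE, n = 5 libraries, edgeR adjusted p = 3.4e-06). *Ctsc* was lower as well (-1.33 ± 0.20, edgeR adjusted p = 0.000256). *Cst3* (1.93 ± 0.17, edgeR adjusted p = 4.63e-06) and *Ctsz* (0.74 ± 0.12, edgeR adjusted p = 0.000473) were higher in 5 of 5 libraries, and *Ctsh* (0.57 ± 0.13, edgeR adjusted p = 0.00286) in 4 of 5. *Ctss*, at 847 to 1507 CPM in mature cells and 1281 to 2109 CPM in cDC2, did not pass (-0.28 ± 0.13). In this comparison 25.6% of 10254 genes were higher and 24.8% lower, and 3 and 2 members were. The median of all genes shifted by -0.257 on CPM and by 0.00787 with TMM scaling. *Ctsz* did not pass when cells were named by cluster (adjusted p = 0.265).

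Inhibitors other than *Cst3* also separated the dendritic classes. Mature cells had more *Serpinb9*, an inhibitor of granzyme B (5.93 ± 0.30), *Serpinb1a* (3.06 ± 0.43), *Cstb* (1.79 ± 0.18) and *Serpinb6a* (1.43 ± 0.22), and less *Cst7* (-1.38 ± 0.32), which is cystatin F. These are 4 of 7 inhibitors higher and 1 lower, and 5 of 10 activation and sorting genes were higher and 2 lower, with *Gnptab* (1.04 ± 0.21), *M6pr* (0.92 ± 0.12) and *Lgmn* (0.78 ± 0.14) on one side and *Mitf* (-1.26 ± 0.28) and *Psap* (-0.79 ± 0.16) on the other. *Cd63* and *Lamp1* were higher and *Cd68*, *Glb1* and *Lamp2* lower, and neither of the 2 other cathepsins tested passed. In cDC1 against cDC2, *Igf2r* (3.93 ± 0.40), *Psap* (1.13 ± 0.15), *M6pr* (0.93 ± 0.12) and *Serpinb6a* (0.91 ± 0.25) were higher and *Cst7* (-3.13 ± 0.39), *Serpinb1a* (-1.41 ± 0.38) and *Lamp2* (-0.54 ± 0.14) lower, which is 3 of 10 activation and sorting genes higher, 1 of 6 inhibitors higher and 2 lower, and 1 of 6 partners and membrane genes lower, with no call for the 1 other cathepsin tested.

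**Figure D4:**
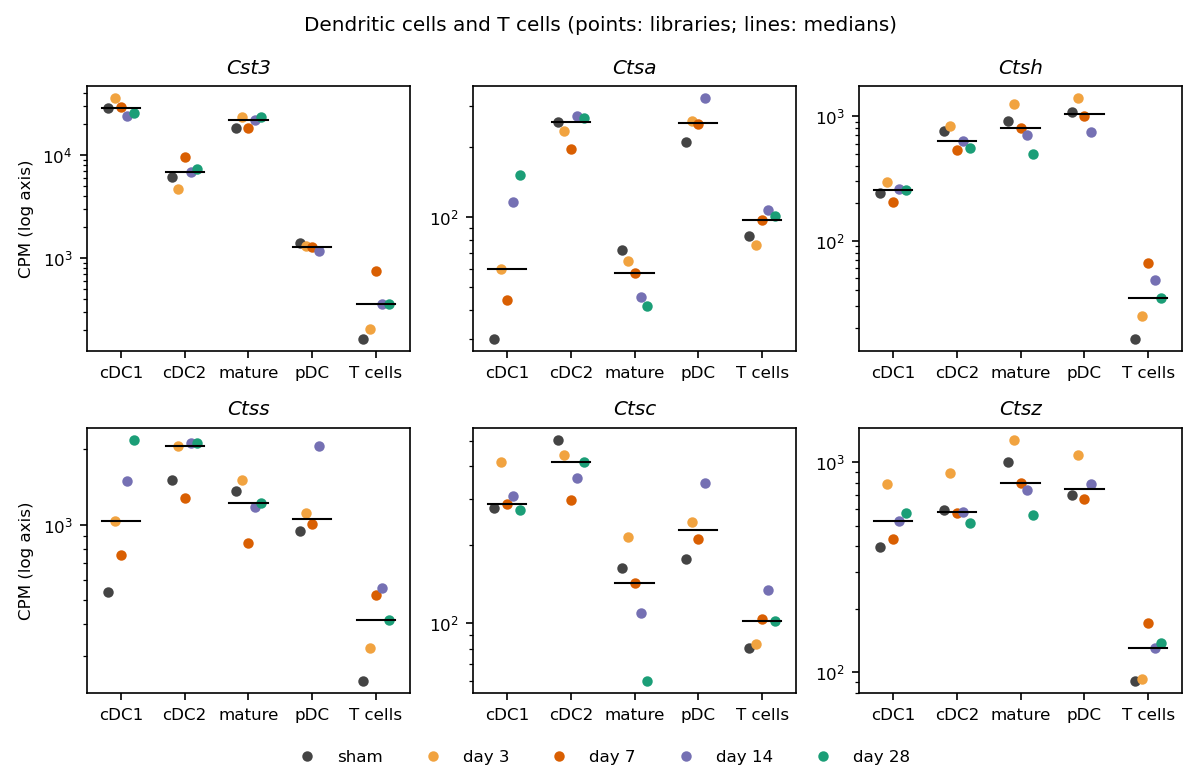
CPM on log axes for 6 genes in dendritic cell classes and T cells, with 1 point per library coloured by time and a line at the median. *Cst3* of cDC1 (23711 to 35621) and mature DC (18164 to 23520) lies above that of cDC2 in every library, and *Ctsa* is lowest in cDC1 and mature DC.

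The time course was described without a test, since each time point had 1 library, and intervals cover counting error only. A gene was counted as changed at 2-fold or more against sham among genes of 100 CPM or more. In AMs *Ctsb* and *Ctsd* came to 2-fold of sham by day 28, and the other members stayed under it. *Ctsd* was 5336 CPM in sham and 5812, 9781, 8815 and 10715 CPM at days 3, 7, 14 and 28, and the day 7 value was 1.83 times and the last value 2.01 times that of sham (95% interval 2.00 to 2.02). *Ctsb* reached 2.05 times the sham level at day 28 (2.03 to 2.07). *Ctsk* varied between 0.976 and 1.03 times sham at all 4 times. Thus 0 of 10 members were changed at day 3, day 7 and day 14, where 7.26%, 3.65% and 6.46% of genes were, and 2 of 10 at day 28, where 8.44% were, both so close to 2-fold that a higher UMI floor brought them under it. The AMs lay in different clusters by time, with 87.2% in one cluster in sham, 73.2% in another at day 3, 70.5% and 69.3% in a further one at days 7 and 14, and 86.7% in yet another at day 28, so these values are levels of the marker-gated class and not of one cluster.

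**Figure D5:**
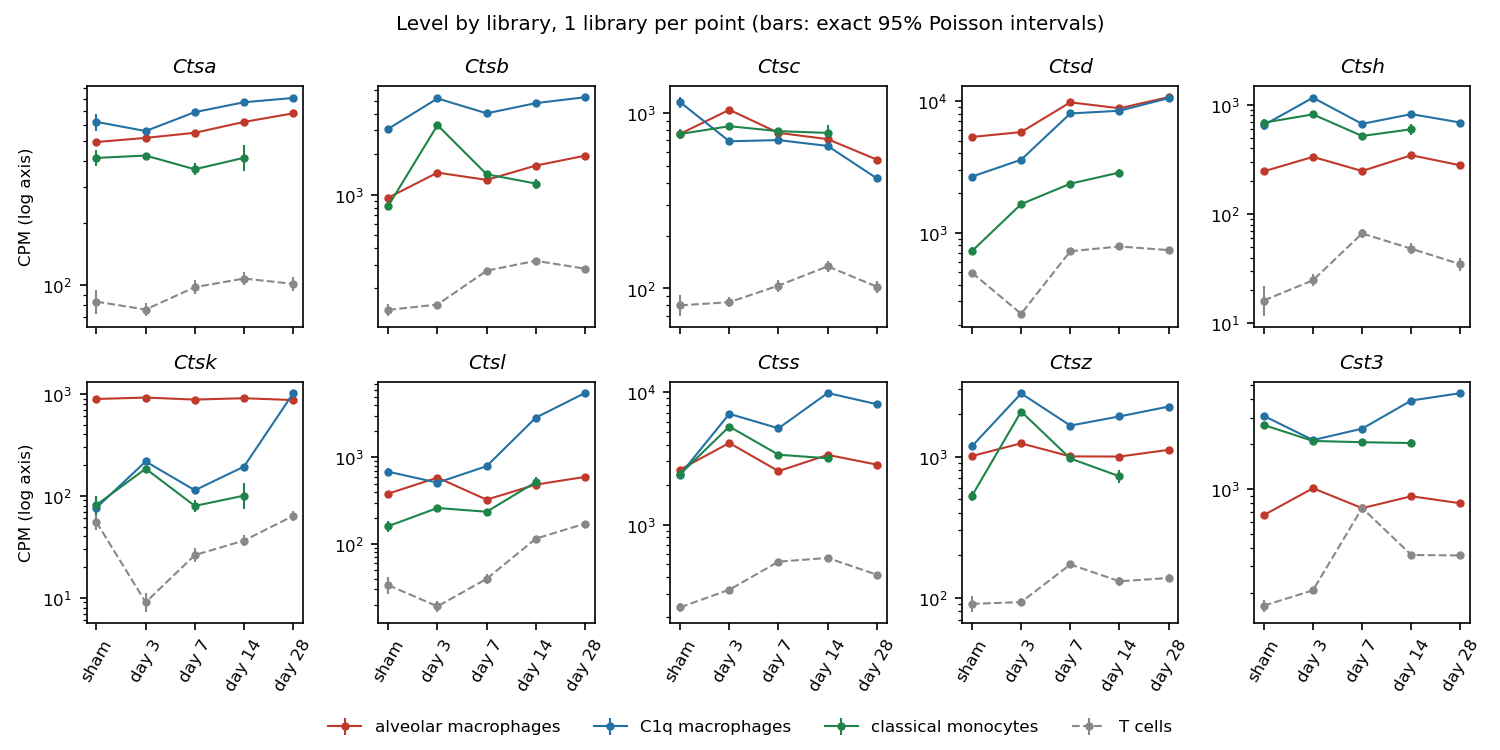
CPM on log axes by time for each gene in AMs, C1q macrophages, classical monocytes and T cells, 1 library per point with exact 95% Poisson intervals as bars. *Ctsk* stays between 869 and 919.9 CPM in AMs and climbs to 1013 CPM in C1q macrophages of day 28, and *Ctsl* of C1q macrophages goes from 511 CPM at day 3 to 5547 CPM at day 28.

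C1q macrophages moved more. *Ctsl* was 684 CPM in sham and 511, 793, 2882 and 5547 CPM at days 3, 7, 14 and 28. *Ctsk* was 76.5, 217, 113, 194 and 1013 CPM at the same times, and *Ctss* was 2391, 6873, 5344, 9873 and 8129 CPM. The highest *Ctsl* and *Ctsk* values were those of day 28, and *Ctss* was above sham at every time after bleomycin. Against the 50 sham cells, *Ctsk*, *Ctss* and *Ctsz* were changed at day 3, *Ctsd* and *Ctss* at day 7, *Ctsd*, *Ctsk*, *Ctsl* and *Ctss* at day 14, and the same 4 together with *Ctsc*, which was lower (0.368 times sham), at day 28. The corresponding shares of all genes were 22.9%, 9.79%, 13.8% and 21.8%. Most of these changes were lost or turned when cells were named by cluster, which left 73 C1q macrophages at day 3 in place of 965 and gave 91 in sham. By cluster the sham level of *Ctsk* was 674 CPM. At day 3 *Ctsk*, *Ctss* and *Ctsd* were then lower than in sham, with log2 ratios of -4.57, -1.18 and -1.94, and *Ctsz* was at -0.29. At day 7 the one change was a lower *Ctsk* (-2.15), with *Ctsd* (0.42) and *Ctss* (0.15) under 2-fold. At day 14 *Ctsl* (1.77) and *Cst3* (1.03) were higher and *Ctsk* lower (-1.42), and *Ctsd* (0.33) and *Ctss* (0.82) were under 2-fold. At day 28 *Ctsl* (2.44) and *Cst3* (1.06) were higher and *Ctsc* lower (-1.08), while *Ctsd* (0.58), *Ctsk* (0.91) and *Ctss* (0.42) were under 2-fold. The changes that held both ways were thus *Ctsl* at days 14 and 28 and *Ctsc* at day 28.

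Because of the small sham class, day 28 was also set against day 3 within C1q macrophages, a comparison chosen after the data had been seen. *Ctsl* was 10.8 times higher (95% interval 10.6 to 11.1), *Ctsk* 4.67 times (4.50 to 4.84), *Ctsd* 2.94 times (2.91 to 2.97) and *Cst3* 2.07 times (2.04 to 2.10). *Ctsb* stayed at 1.02 times, while *Ctsh* was 0.592, *Ctsc* 0.615 and *Ctsz* 0.807 times the day 3 level. So 4 of 10 members were past 2-fold, where 31.5% of all genes were, and the median log2 ratio of all genes was -0.341. *Ctsd*, *Ctsk* and *Ctsl* were past 2-fold under every alternative. *Cst3* was not with doublets kept or with cells named by cluster (1.19 times), and by cluster *Ctss* (3.03 times) was higher and *Ctsc* (0.443 times) lower. Different clusters held most C1q macrophages at the 2 times, as given above.

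The share of cells with a UMI, after each cell was thinned to 2000 UMIs, showed how widely these levels were carried. *Ctsl* was detected in 49.0% of C1q macrophages at day 3 (exact 95% interval 45.8 to 52.3) and in 93.9% at day 28 (92.6 to 94.97), against 3.96% and 31.0% of T cells. *Ctsk* was detected in 20.6% of C1q macrophages at day 3 and 41.1% at day 28 (38.7 to 43.5), against 1.70% and 13.1% of T cells, and in 56.9% to 69.1% of AMs. Before thinning, the day 28 shares in C1q macrophages were 99.1% for *Ctsl* and 77.0% for *Ctsk*, with a median depth of 21480 UMIs per cell against 3899 UMIs in T cells. In sham, *Ctsk* was found in 8.51% of the 47 C1q macrophages deep enough and in 10.3% of T cells, and was therefore read as background. *Ctsd* was found in up to 76.2% of T cells, so no share was read for it.

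The *Ctsk* level of C1q macrophages at day 28 was compared with the AM markers these cells carried. Their summed AM markers were 302 CPM, against 4758 CPM in AMs of that library, while *Ctsk* was 1013 CPM in C1q macrophages and 869 CPM in AMs. In the 1164 C1q macrophages of day 28 with no AM marker detected after thinning, *Ctsk* was 962 CPM, in those with 1 marker it was 1094 CPM, and in the 108 cells with 2 or more it was 1305 CPM. At day 14 the values were 184, 185 and 352 CPM, and at day 7 they were 102, 102 and 684 CPM, the last over 35 cells. *Ctsk* was thus highest in the cells with 2 or more AM markers at all 3 times, and the part of AM RNA or of AM-like cells in it was not tested. *Ctsl* went the other way, at 6148, 4440 and 2912 CPM in the same cells of day 28.

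Cells gated as classical monocytes had their highest *Ctsb*, *Ctsz* and *Ctss* at day 3, but they lay in different clusters by time. In sham 93.8% and at day 14 75.0% were in 1 cluster, at day 3 69.3% were in the cluster shared with C1q macrophages and 29.7% in yet another, and at day 7 no cluster held more than 37.1%. *Ctsb* was 824 CPM in sham, 3288 at day 3, 1415 at day 7 and 1207 at day 14, and *Ctsz* was 527, 2086, 969.5 and 725 CPM. At day 3 the ratio to sham was 3.99 for *Ctsb* (95% interval 3.73 to 4.27) and 3.96 for *Ctsz* (3.64 to 4.31). *Ctss* was 2.29 times sham at day 3, where the summed classical monocyte markers of the class were also highest, at 10190 CPM against 7728 CPM in sham. *Ctsd* was higher at each later time, from 724 CPM in sham to 1647, 2356 and 2864 CPM. B cells of the same libraries had 361, 252, 2284 and 1175 CPM of *Ctsd*, and the part of free RNA was not tested. At day 3, 5 of 10 members were changed (*Ctsb*, *Ctsd*, *Ctsk*, *Ctss* and *Ctsz*), where 25.4% of genes were. At day 7 only *Ctsd* was changed, of 9 members over the floor and with 16.9% of genes, and at day 14 *Ctsd* and *Ctsl* were, with 13.5% of genes.

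To ask whether AMs with the *Ms4a3* lineage label differ in cathepsins, AMs with 2 or more reporter UMIs were compared with those without any, in the 3 libraries with enough labelled cells (117 in sham, 153 at day 14 and 267 at day 28). *Ctss* was 2815, 4079 and 3305 CPM in reporter-high and 2600.2, 3223 and 2715 CPM in reporter-negative AMs. It was higher in 3 of 3 libraries by a small amount (0.27 ± 0.05, SE, edgeR adjusted p = 0.0427), and the call was lost without day 14 (adjusted p = 0.223) or day 28 (adjusted p = 0.362) and under 4 changes of the cell filters or classes. *Ctsk* was 1337, 606 and 779 CPM in reporter-high and 841, 990 and 907 CPM in reporter-negative AMs, higher in sham and lower at both late times (-0.06 ± 0.18). So 1 of 10 members was higher, where 0.647% of 11440 genes were higher and 0.411% lower, and no gene of the other lists passed among 2 other cathepsins, 6 inhibitors, 10 activation and sorting genes and 6 partners and membrane genes. T cells with 2 or more reporter UMIs made up 2.52%, 12.6% and 3.86% in these libraries against 2.40%, 13.8% and 12.0% of AMs, so that the share in AMs was well above that in T cells at day 28 and close to it in the other 2 libraries.

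Finally, the genes most like each member were listed as a description over 58 sums of at least 50 cells of a class and library, by Pearson r of log2(CPM + 10) among 5118 genes. The sums share libraries and free RNA, and no p-value was attached. *Ctsk* was most like *Lpl* (r = 0.91), *Abcg1* (0.91) and *Hebp1* (0.90), and *Ctsd* most like *F7* (0.93), *Pld3* (0.92) and *Mertk* (0.91). *Cst3* was most like *Atox1* (0.90), *Batf3* (0.89) and *Tspan33* (0.86). *Ctss* and *Ctsz* were each other's nearest genes (0.89), *Ctsb* was nearest to *Itgb5*, *Grn* and *Lgmn* (each 0.88), and *Ctsl* nearest to *Ctsb* (0.79). *Ctsa* was nearest to *Adgre1* (0.88), *Ctsc* to *Cndp2* (0.87) and *Ctsh* to *P2rx4* (0.81). Among the members *Ctsk* went with *Ctsd* (0.86) and hardly with *Ctsh* (0.00), and *Cst3* had an r of -0.22 with *Ctsd*.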

How the data were processed

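The authors deposited unnormalized UMI counts for each gene and barcode, made with Cell Ranger 6.0.0 on mm10 per the labels, with an added RFP feature taken as the tdT reporter. The filter of the study's methods (300 to 8000 genes, 800 to 60000 UMIs, mitochondrial share below 15%) left 44772 barcodes, and 3822 predicted doublets (Scrublet in scanpy 1.11.5, 0.8% per 1000 barcodes) were removed. A cell took a class when at least 3 of its markers were detected and its mean standardized marker score led the next class by 0.2. UMIs were added up for each class in each library that held 20 or more of its cells. Classes were compared with edgeR 4.0.16 (quasi-likelihood, TMM, filterByExpr, library as a block) in R 4.3.3, at an adjusted p under 0.05, with SE taken as the log2 difference over the root of F. The test was also run on simulated counts with the same class difference in every library. That simulation does not cover class differences that change with time. Cells were thinned to 2000 UMIs for the scar and reporter groups. Alternatives were DESeq2 1.42.0, median-ratio size factors, no filter, no block, 1 library left out, doublets kept, a mitochondrial limit of 10%, a floor of 4624 UMIs, classes named by cluster and, for the time course, an expression floor of 50 CPM, TMM between libraries and CPM averaged over cells. All 10 members were named, and from the lists (other cathepsins, inhibitors, activation and sorting, partners and membrane) up to the 3 largest calls per direction, or all where few. The members and lists were chosen with earlier results of these data known. Libraries held 89769386 to 167506186 UMIs, and intervals cover counting error only.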

Additional observations from a re-analysis of the deposited data

How the results depend on the processing

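The 39 member differences called between classes had 482 values under the alternatives, of which 417 were still called in the same direction, 65 kept the direction without passing and 0 reversed. Of the 65, 24 came from the fit with no library block, 33 from leaving out 1 library and 8 from other changes, and DESeq2 lost 0 of the 39. The cause of these changes was not tested. With 1 library left out, the number of members called ranged from 4 to 7 for AMs against C1q macrophages (8 with all), 6 to 7 for scar-high AMs (6), 3 to 8 for scar-high C1q macrophages (7), 2 to 6 for C1q macrophages against classical monocytes (4), 3 to 4 for cDC1 against cDC2 (4), 5 to 6 for mature DC (5), 4 to 5 for nonclassical monocytes (4) and 0 to 2 for the reporter (1). With no library block, 0 members were called for scar-high AMs, for scar-high C1q macrophages, for C1q macrophages against monocytes and for the reporter, and 2 for nonclassical monocytes. With no filter on low counts, 7 were called for cDC1, 7 for nonclassical monocytes and 2 for the reporter. With classes by cluster, 9 were called for cDC1, 8 for mature DC and 0 for the reporter, and *Ctsb* (-1.52), *Ctsd* (-1.90) and *Ctsl* (-1.92) reversed in cDC1, none of them called with marker-gated cells. The cDC2 class by cluster, used in both dendritic comparisons, also held other cells, as given above. With doublets kept, the reporter comparison called 0 and *Ctsd* reversed to 0.53 in mature DC, and with the day 7 UMI floor the reporter comparison called 0.

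For the time course, AMs at day 28 had 1 changed member with a mitochondrial limit of 10%, 0 with the day 7 UMI floor and 1 with CPM averaged over cells, against 2 otherwise. C1q macrophages had 2 at day 7, but 1 with doublets kept or classes by cluster and 3 with CPM averaged over cells. They had 5 at day 28, but 3 by cluster, 6 with CPM averaged over cells and 7 with TMM between libraries. With CPM averaged over cells they had 4 in place of 3 at day 3 and 5 in place of 4 at day 14. Against day 3, day 28 had 4, but 3 with doublets kept and 5 by cluster. By cluster the log2 ratios reversed for *Ctsk* (-4.57), *Ctss* (-1.18) and *Ctsz* (-0.29) at day 3 and for *Ctsk* (-1.42) at day 14. Classical monocytes had 3 at day 3 with doublets kept (5 otherwise) and 2 at day 7 with CPM averaged over cells (1 otherwise). Without thinning, *Ctsk* was detected in 77.0% of C1q macrophages and 22.4% of T cells at day 28, and *Ctsl* in 99.1% of C1q macrophages at day 28 and 85.3% at day 3. No cluster was named as classical monocytes, so the comparisons with them have no value by cluster. Classes were paired within each library by the library block. Between time points no paired analysis was possible because each treatment group held 1 library, and these differences carry no replicate error.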

Other observations

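Neutrophils, NK cells and fibroblasts also carried cathepsins, in part unevenly between libraries. Neutrophils had 259.7 CPM of *Ctss* in sham and 606, 2476, 891 and 731 CPM at days 3, 7, 14 and 28, and *Ctsc*, the activator of their granule proteases, was 66.3, 47.4, 464, 114 and 75.8 CPM. The day 7 library, with 166 neutrophils, was the highest for both genes. Its neutrophils had a median of 8594 UMIs against 2151 to 3332 in the other libraries, and no barcode of this library had fewer than 4624 UMIs, so they are the deep part of the class, and the part of depth in these values was not tested. *Cst3* stayed between 1300.2 and 1446 CPM in neutrophils of all 5 libraries. NK cells of day 7 (36 cells, under the same lowest UMI count) had the highest value of each member in their class, with *Ctsd* at 5513 CPM against 740 to 1383 CPM in the other libraries. Fibroblasts, with 37 to 119 cells per library, held *Ctsl* at 1255, 1241, 581, 1287 and 1045 CPM and *Cst3* at 2515, 2520, 2256, 3599 and 2500.1 CPM, in order of time.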
